A study of Mus musculus with 6 samples.

Results

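Mitotic spindle, kinetochore and cytokinesis genes were examined in mouse embryonic fibroblasts (MEFs), connective tissue cells that grow attached to a surface, before and after passage through narrow pores. The 50 members were named by symbol as genes whose proteins start mitosis, build the spindle, attach chromosomes to it or divide the cell, and their identifiers were found among the 55335 genes of the deposited count table. All 50 were present and all 50 passed the filter on low counts. The choice of members used no value of these libraries, but it was made with earlier results of these data known. Ctrl denotes the parental MEFs, and Confine denotes the MEFs, labelled 3 μm_confine, that were seeded on a porous membrane (a transwell) with 3 μm pores and collected below it after 15 h. Both groups were labelled wild type (WT), and their labels give the same serum-containing medium for growth. The study's transwell method, given for wider pores, has no serum above the membrane and serum below it, and whether this held for the cells sequenced is not stated in the sources used here. The labels do not say whether Ctrl cells were kept on a membrane, and Confine cells are by design the subset of cells that crossed. The labels do not state separate cultures for the replicates, so p-values measure the spread between these libraries, which may be technical.

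Entry into mitosis is driven by the kinase CDK1 bound to cyclin B. Kinetochore proteins then tie each centromere to spindle microtubules, the spindle checkpoint delays anaphase until all are tied, and the anaphase-promoting complex (APC/C) releases the sister chromatids by marking securin and cyclin B for destruction. Cleavage between the separated chromosomes is organised by the central spindle. Transcripts of many of these genes build up in G2 phase and mitosis of dividing cells, through factors that act at a promoter element called CHR and at CCAAT boxes, and they are low in resting fibroblasts. In bulk libraries, fewer cells in these phases and less of each RNA per cell cannot be told apart.

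The table held 6 columns, 3 per group, but the columns of Confine replicates 1 and 2 were equal in all 55335 genes. They were counted as 1 library (the repeated library below), which leaves 3 Ctrl and 2 Confine libraries. Total counts ranged from 22287210 to 32537550, and a floor of 3 counts corresponded to between 0.101 and 0.128 normalized CPM, that is counts scaled to a common library size after TMM, a method that equalises the bulk of genes between libraries. The members had between 101 and 12365 counts in every library, all far above this floor. MEF markers were checked first. Col1a1, Col1a2, Vim and Fn1 were at or above 655 normalized CPM in all 5 libraries, whereas Thy1, Lum and Dcn were below 1.

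The 50 genes were mostly lower in Confine than in Ctrl. Of these, 47 were called lower, where 10.3% of the 15881 tested genes were, and 0 were called higher, where 12.9% of tested genes were. A call means an adjusted p under 0.05 in the quasi-likelihood test of edgeR, adjusted over all tested genes by the Benjamini-Hochberg method, and this test gives every adjusted p below. Their median log2 fold change was -1.62, beside a median of 0.0 over all tested genes, and 3.06% of tested genes were at or below that value. Higher by this test at an unadjusted p under 0.05 was 1 member (Pttg1), and DESeq2 and limma-voom called 0 higher. With the additional cutoff of an absolute log2 fold change above 1.5, 30 members were called lower, beside 3.14% of tested genes. In 48 members both Confine libraries lay below all 3 Ctrl libraries, beside 23.6% of tested genes. The Confine mean was at or below 50% of the Ctrl mean in 46 members, a count for which the share of all tested genes is not given here. Without the TMM scaling, the median over tested genes shifted to -0.21, and 49 members were called lower.

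Summed over the 50 genes, the counts took up 0.598%, 0.568% and 0.565% of the totals of the Ctrl libraries. In Confine the shares were 0.172% in the repeated library and 0.231% in replicate 3. The groups were far apart, and the repeated library was the lowest. On the normalized scale the sum was 5452 ± 269 CPM (SD, n = 3) in Ctrl and 2197 ± 437 CPM (SD, n = 2) in Confine, a ratio of 2.48. The ratio of the raw shares was 2.86. The genes lie on 16 chromosomes.

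**Figure D1:**
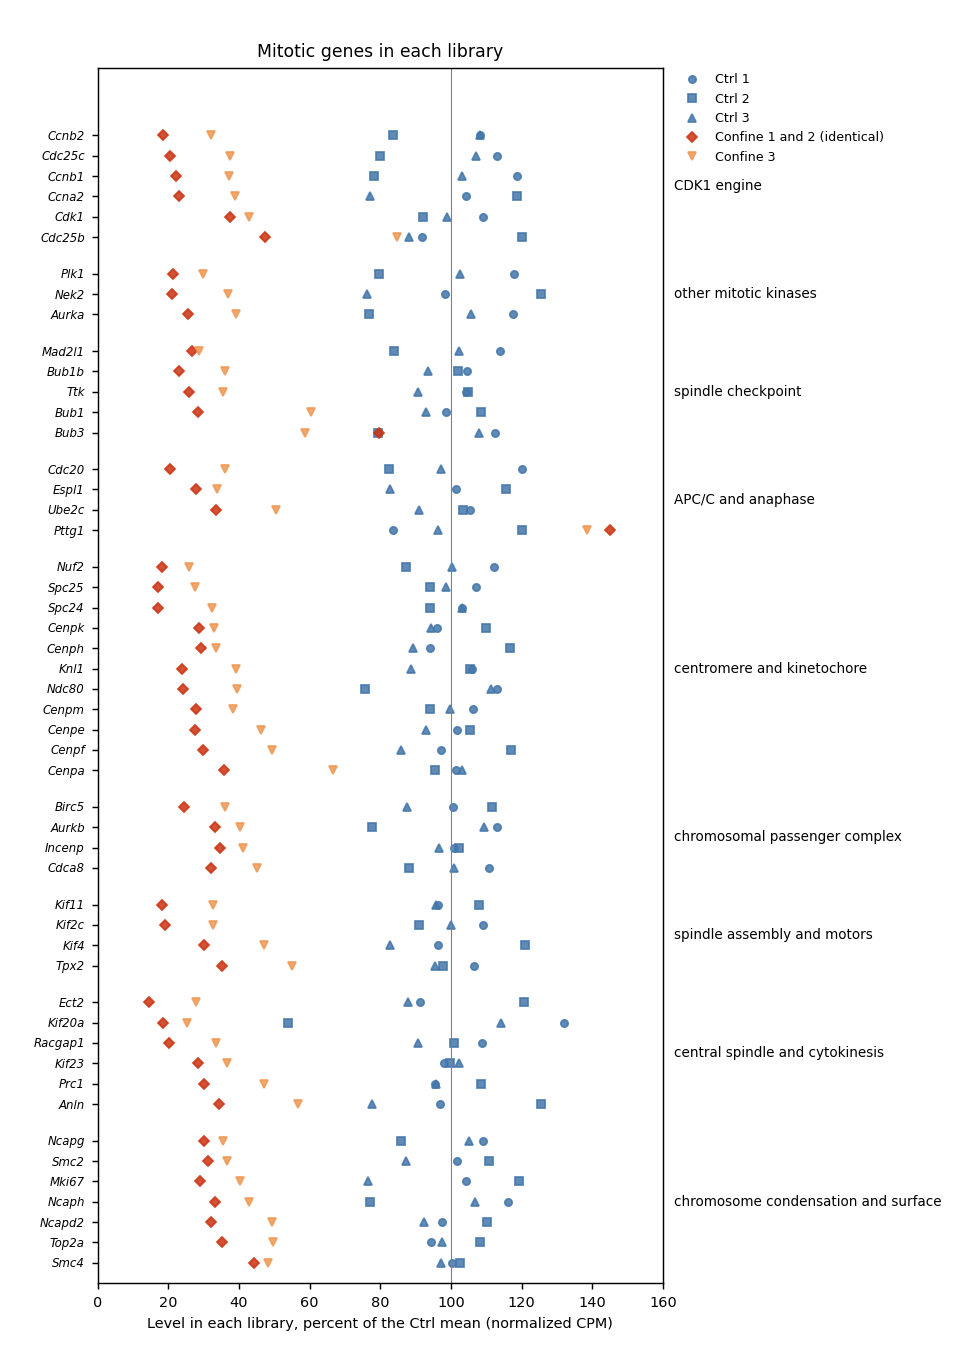
Level of each of the 50 mitotic genes in each library (x axis, normalized CPM as a percent of the Ctrl mean), grouped by role. Blue points are Ctrl 1, 2 and 3, the red diamond is the Confine library deposited as replicates 1 and 2, and the orange triangle is Confine 3. In 48 genes both Confine points lie left of every Ctrl point, Bub3 overlaps, and Pttg1 lies to the right.

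Since most members moved in 1 direction, their promoters were read for the letters of the CHR element (TTTGAA or TTCGAA) and the CCAAT box (CCAAT), both on either strand. RefSeq windows from 250 bases before to 50 bases after the annotated start (assembly GRCm38.p6) were matched by symbol to 42 of the 50 members, with 47 windows (not matched were Aurkb, Ccna2, Cdc25c, Incenp, Kif20a, Smc4, Spc24 and Tpx2). CHR letters were in a window of 32 of these 42 genes (76.2%), beside 16.6% of the 10303 tested genes with a window. CCAAT letters were in a window of 33 of the 42 (78.6%), beside 43.1% of tested genes, and both were in a window of 28 (66.7%), beside 6.9%. Counted by windows, CHR letters were in 74.5% of member windows and 19.2% of all 32851 windows, and CCAAT letters in 80.9% and 37.4%. CHR letters that began within 50 bases of the start were found in 28 members (66.7%), beside 4.45% of tested genes. Of 113 other mitotic genes, from the 5 lists given below, 95 had a window. CHR letters were in 43.2% of these 95, CCAAT letters in 53.7% and both in 27.4%. Within 50 bases of the start, CHR letters began in 29.5% of them. These are matches of letters and not measured binding sites.

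The stretches below show members with both elements (Cdk1, Cdc20, Top2a, Kif11), with CCAAT letters alone in the stretch (Ccnb2, Ttk) and with neither (Nuf2). Each holds 110 bases of GRCm38.p6, read 5′ to 3′ on the gene's strand, and ends just before the more upstream of the RefSeq and GENCODE M21 starts. Capitals mark the letters of either element on either strand.
Cdk1, chr10:69352939-69353048, minus strand: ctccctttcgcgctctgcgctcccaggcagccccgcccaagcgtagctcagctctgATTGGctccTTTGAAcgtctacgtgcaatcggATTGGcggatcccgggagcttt
Cdc20, chr4:118437353-118437462, minus strand: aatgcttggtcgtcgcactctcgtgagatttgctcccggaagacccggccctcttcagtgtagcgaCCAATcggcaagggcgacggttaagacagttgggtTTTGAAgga
Top2a, chr11:99024190-99024299, minus strand: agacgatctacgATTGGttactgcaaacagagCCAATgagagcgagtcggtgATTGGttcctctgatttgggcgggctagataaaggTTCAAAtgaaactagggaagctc
Kif11, chr19:37376272-37376381, plus strand: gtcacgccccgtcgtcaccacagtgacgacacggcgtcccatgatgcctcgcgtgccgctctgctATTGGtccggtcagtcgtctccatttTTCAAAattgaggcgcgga
Ccnb2, chr9:70421555-70421664, minus strand: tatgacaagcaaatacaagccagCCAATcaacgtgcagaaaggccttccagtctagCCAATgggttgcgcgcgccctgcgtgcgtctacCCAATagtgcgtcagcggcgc
Ttk, chr9:83834579-83834688, plus strand: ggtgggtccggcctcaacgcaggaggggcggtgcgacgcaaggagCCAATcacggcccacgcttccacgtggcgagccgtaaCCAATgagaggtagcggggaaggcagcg
Nuf2, chr1:169531465-169531574, minus strand: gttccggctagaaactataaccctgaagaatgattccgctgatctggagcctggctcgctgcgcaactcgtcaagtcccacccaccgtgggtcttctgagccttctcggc

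Within these stretches, and counted from the RefSeq start, CHR letters began 71 bases upstream in Cdk1, 18 in Cdc20, 23 in Top2a and 19 in Kif11. The rest of the window held 1 more CHR match in Cdk1, 3 in Top2a, 2 in Ccnb2 and 1 in Ttk. In Top2a the printed CHR letters followed 3 CCAAT matches that began 98, 78 and 58 bases upstream, and in Kif11 1 match that began 45 bases upstream. Of these, 1 in Ccnb2 began 4 bases and that in Ttk 7 bases downstream of the start, and the others began upstream. Of all member windows, 27.7% had CHR letters that began within the 25 bases from the start. The 32 genes with CHR letters in a window had a median log2 fold change of -1.6 (from -2.24 to -0.53), and the 10 genes without them had a median of -1.7 (from -2.18 to 0.5). These medians were close, and their difference was not tested. Bub3 and Cdc25b, which were not called, had both elements, and Pttg1 had neither.

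**Figure D2:**
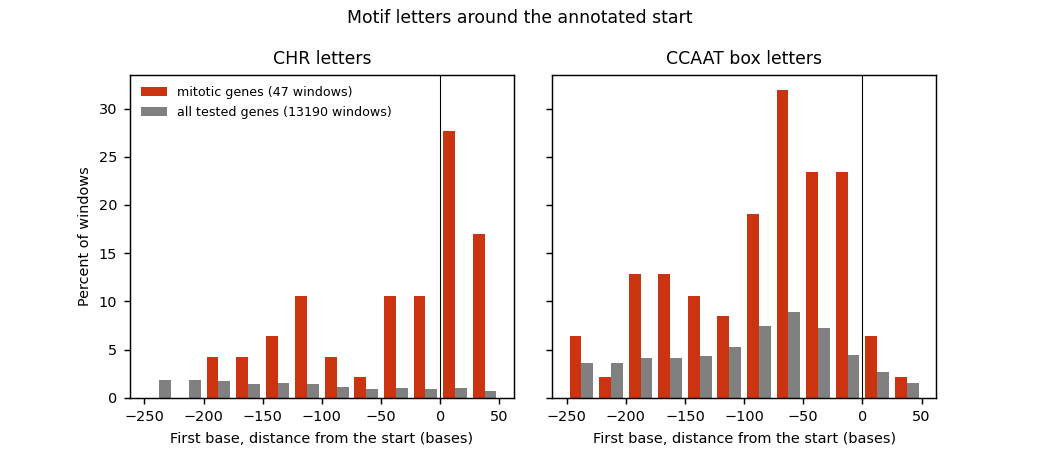
Share of promoter windows (y axis, percent) in which CHR letters (left) or CCAAT letters (right) begin in each bin of 25 bases, by distance from the RefSeq start (x axis, bases). Red bars are the 47 windows of the mitotic genes and grey bars the 13190 windows of tested genes. The highest red bars are 27.7% for CHR just downstream of the start and 31.9% for CCAAT between 75 and 50 bases upstream.

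The genes of the CDK1 engine were examined first, since the kinase and its cyclins drive entry into mitosis. Of the 6, 5 were called lower, and their median log2 fold change was -1.72. Cdk1, the kinase itself, had 285, 240.3 and 259 normalized CPM in Ctrl and 97.9 in the repeated Confine library and 112 in Confine 3. Behind these values stood counts of 8241, 6358 and 6080 in the Ctrl libraries and of 2897 and 2827 in the Confine libraries. The groups did not overlap, and the log2 fold change was -1.31 ± 0.19 (SE, adjusted p = 1.57e-05). Ccna2, the cyclin of S phase and G2, had 40.5, 46.0 and 29.9 normalized CPM in Ctrl and 8.99 and 15.1 in Confine. Ccnb1, a B-type cyclin that opens mitosis with CDK1, had 282, 186 and 245 in Ctrl and 52.4 and 88.4 in Confine. Ccnb2, the other mitotic B-type cyclin, had 165, 128 and 165 in Ctrl and 28.4 and 48.9 in Confine. All 3 cyclins were thus separated between the groups, and Confine 3 was the higher of the Confine libraries for each. The log2 fold changes were -1.69 ± 0.24 for Ccna2 (SE, adjusted p = 2.56e-05), -1.76 ± 0.24 for Ccnb1 (1.18e-05) and -1.98 ± 0.23 for Ccnb2 (1.87e-06), the last the lowest of this role.

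The phosphatases that activate CDK1 gave different values. Cdc25c fell with a log2 fold change of -1.79 ± 0.25 (SE, adjusted p = 1.71e-05). Cdc25b had 56.1, 73.3 and 53.8 normalized CPM in Ctrl and 29.0 and 51.8 in Confine, so that Confine 3 lay just below the lowest Ctrl library. Its log2 fold change of -0.60 ± 0.23 did not pass (adjusted p = 0.067). The value was -1.08 without Confine 3 and -0.24 without the repeated library. Per kilobase of exon, Ccnb2 was the most abundant member in Ctrl, at 99.7 ± 14.1 normalized CPM per kilobase (SD, n = 3). Next in order were Cdc20 (83.3 ± 15.7) and Cenpa (71.9 ± 2.92), and the Ctrl libraries of each overlapped in range with those of the gene before it on this scale. At the other end Knl1 had 2.06 ± 0.198 and Espl1 2.51 ± 0.41 normalized CPM per kilobase. In all, 10 members were above 50 on this scale. The length was the union of all annotated exons of a gene, so this order also depends on the annotation.

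The other mitotic kinases, Plk1, Aurka and Nek2, were all called lower and all passed the fold cutoff. Plk1, the polo-like kinase of mitotic entry and of the spindle poles, had 98.5, 66.6 and 85.8 normalized CPM in Ctrl and 17.9 and 25.0 in Confine. This was the lowest log2 fold change of the kinases, at -1.96 ± 0.22 (SE, adjusted p = 8.73e-07). Aurka, the aurora kinase of the centrosomes, had 120, 78.2 and 108 in Ctrl and 26.0 and 40.1 in Confine, with a log2 fold change of -1.63 ± 0.23 (adjusted p = 1.85e-05). Both kinases were separated between the groups, and Ctrl 2 was the lowest Ctrl library for each. Nek2, a kinase of centrosome separation, had a log2 fold change of -1.79 ± 0.27 (adjusted p = 3.61e-05).

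Of the 5 spindle checkpoint genes, 4 were called lower. Mad2l1, which encodes MAD2, a part of the inhibitor of CDC20, had 173, 128 and 156 normalized CPM in Ctrl and 40.5 and 43.8 in Confine. Its Confine values were close together, and its log2 fold change was -1.85 ± 0.20 (SE, adjusted p = 4.41e-07). Bub1b, which encodes BUBR1 of the same inhibitor, had a log2 fold change of -1.76 ± 0.22, and Ttk, the kinase that starts the checkpoint signal, -1.71 ± 0.24. Bub1, a kinetochore-bound checkpoint kinase, had 28.5, 31.4 and 26.9 normalized CPM in Ctrl and 8.18 and 17.5 in Confine. It was called lower (log2 fold change -1.18 ± 0.25, adjusted p = 0.00171), but without the repeated library the log2 fold change was -0.73 and the call was lost. Bub3, which brings BUB1 and BUBR1 to kinetochores, was the exception of this role. It had 415, 293 and 398 normalized CPM in Ctrl and 294 and 217 in Confine, and the repeated library lay within the Ctrl range. Its log2 fold change was -0.53 ± 0.20 (adjusted p = 0.0622).

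Genes of anaphase onset included the only member above its Ctrl level. Cdc20, the activator that turns on the APC/C in mitosis, had 187, 128.5 and 151 normalized CPM in Ctrl and 32.0 and 56.2 in Confine, with a log2 fold change of -1.82 ± 0.24 (SE, adjusted p = 8.91e-06). Its promoter stretch above carries both elements. Ube2c, the ubiquitin-conjugating enzyme of the APC/C, had a log2 fold change of -1.25 ± 0.20 (adjusted p = 7.76e-05). Pttg1 encodes securin, the inhibitor of separase, and lies at chr11:43420250-43426251 (GRCm38, GENCODE M21). It had 62.0, 88.9 and 71.3 normalized CPM in Ctrl and 107 and 103 in Confine. Both Confine values lay above all Ctrl values, with a log2 fold change of 0.50 ± 0.19 that did not pass (adjusted p = 0.0589). It was called higher without Ctrl 2 (log2 fold change 0.65), and over all alternatives that left out 1 library the value lay between 0.39 and 0.65. Espl1, which encodes separase, the protease that securin holds back, had 22.3, 25.4 and 18.2 in Ctrl and 6.12 and 7.42 in Confine, with a log2 fold change of -1.70 ± 0.23 (adjusted p = 7.58e-06). The difference between the changes of the securin and separase genes was not tested.

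All 11 centromere and kinetochore members were called lower, with a median log2 fold change of -1.67, and 8 passed the fold cutoff. The lowest value belonged to Nuf2, a subunit of the NDC80 complex, which binds microtubules. Nuf2 had 70.8, 55.1 and 63.2 normalized CPM in Ctrl and 11.5 and 16.3 in Confine. The Confine mean was 22.1% of the Ctrl mean, with a log2 fold change of -2.18 ± 0.22 (SE, adjusted p = 1.57e-07). The other subunits of the complex also fell, with log2 fold changes of -2.16 ± 0.22 for Spc25, -2.02 ± 0.24 for Spc24 and -1.65 ± 0.24 for Ndc80. Knl1, the scaffold on which checkpoint proteins gather, had -1.67 ± 0.25. Cenpk, Cenph and Cenpm, of the inner kinetochore network on centromeric chromatin, lay between -1.69 and -1.59, and Cenpe, a kinetochore motor, and Cenpf, a large protein of the outer kinetochore, had -1.44 ± 0.22 and -1.33 ± 0.22. Cenpa, the histone H3 variant that marks centromeres, had 427, 402 and 434.5 normalized CPM in Ctrl and 151 and 281 in Confine. It was the least changed of this role (log2 fold change -0.96 ± 0.22, adjusted p = 0.00288), and without the repeated library its log2 fold change was -0.58 and the call was lost.

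The 4 genes of the chromosomal passenger complex, which corrects faulty attachments and later moves to the central spindle, were called lower over a narrow range. Birc5, which encodes survivin, had 147, 163 and 128 normalized CPM in Ctrl and 36.0 and 52.8 in Confine (log2 fold change -1.72 ± 0.21, SE, adjusted p = 2.3e-06). Cdca8, which encodes borealin, had 142, 113 and 129 in Ctrl and 40.9 and 57.7 in Confine (-1.38 ± 0.20, adjusted p = 2.61e-05). Both lay well below Ctrl in each Confine library. Between them were Aurkb, the kinase of the complex, at -1.44 ± 0.21 and Incenp, its scaffold, at -1.40 ± 0.19.

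Spindle assembly factors and motors were lower in 4 of 4 cases. Kif11, the motor that pushes spindle poles apart, had 44.9, 50.2 and 44.6 normalized CPM in Ctrl and 8.51 and 15.2 in Confine. It had the lowest log2 fold change of these, -1.97 ± 0.23 (SE, adjusted p = 1.75e-06), close to Kif2c, a kinesin that takes microtubule ends apart, at -1.95 ± 0.24. Tpx2, the activator of aurora A on the spindle, had 169, 155 and 151 in Ctrl and 55.7 and 87.0 in Confine (-1.15 ± 0.20, adjusted p = 0.00021). Kif4, a motor on chromosome arms, had -1.38 ± 0.23.

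Genes of the central spindle and cytokinesis held the lowest value of all 50 members. Ect2, at chr3:27097222-27153878, encodes the exchange factor that activates RhoA at the cleavage site. It had 21.4, 28.3 and 20.6 normalized CPM in Ctrl and 3.41 and 6.55 in Confine. The Confine mean was 21.3% of the Ctrl mean, with a log2 fold change of -2.24 ± 0.27 (SE, adjusted p = 2.82e-06). Kif20a, a motor that carries the passenger complex to the central spindle, had a log2 fold change of -2.19 ± 0.35, and its Ctrl libraries ranged from 53.8% to 132% of their mean, the widest spread of any member. Racgap1 (-1.90 ± 0.22) and Kif23 (-1.62 ± 0.20), which together form the centralspindlin complex that recruits ECT2, and Prc1 (-1.37 ± 0.21), the bundler of antiparallel microtubules, were also called lower. Anln, which encodes anillin, a scaffold of the contractile ring, was the least changed of this role. It had 62.9, 81.5 and 50.5 normalized CPM in Ctrl and 22.3 and 36.8 in Confine (log2 fold change -1.14 ± 0.24, adjusted p = 0.00127), and without the repeated library its log2 fold change was -0.82 and the call was lost.

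The genes that shape and coat mitotic chromosomes were all called lower, with a median log2 fold change of -1.39. Ncapg, a subunit of condensin I, had 65.9, 51.9 and 63.6 normalized CPM in Ctrl and 18.2 and 21.4 in Confine, the lowest log2 fold change of this role (-1.61 ± 0.20, SE, adjusted p = 3.11e-06). Smc4, a core ATPase of condensin, had 271, 277 and 263 in Ctrl and 120 and 130.5 in Confine, the highest (-1.11 ± 0.18, adjusted p = 7.86e-05). Each group was tight for Smc4, and the gap between them was many times the spread within either. Top2a, the topoisomerase that untangles sister chromatids, had 367, 421 and 379 in Ctrl and 137 and 193 in Confine (-1.24 ± 0.20, adjusted p = 6.36e-05). Mki67, which encodes the proliferation marker Ki-67 on the chromosome surface, had 84.7, 96.7 and 62.0 in Ctrl and 23.6 and 32.8 in Confine (-1.53 ± 0.22, adjusted p = 2.26e-05). The remaining condensin genes had log2 fold changes of -1.56 ± 0.20 (Smc2), -1.39 ± 0.22 (Ncaph) and -1.30 ± 0.21 (Ncapd2).

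**Figure D3:**
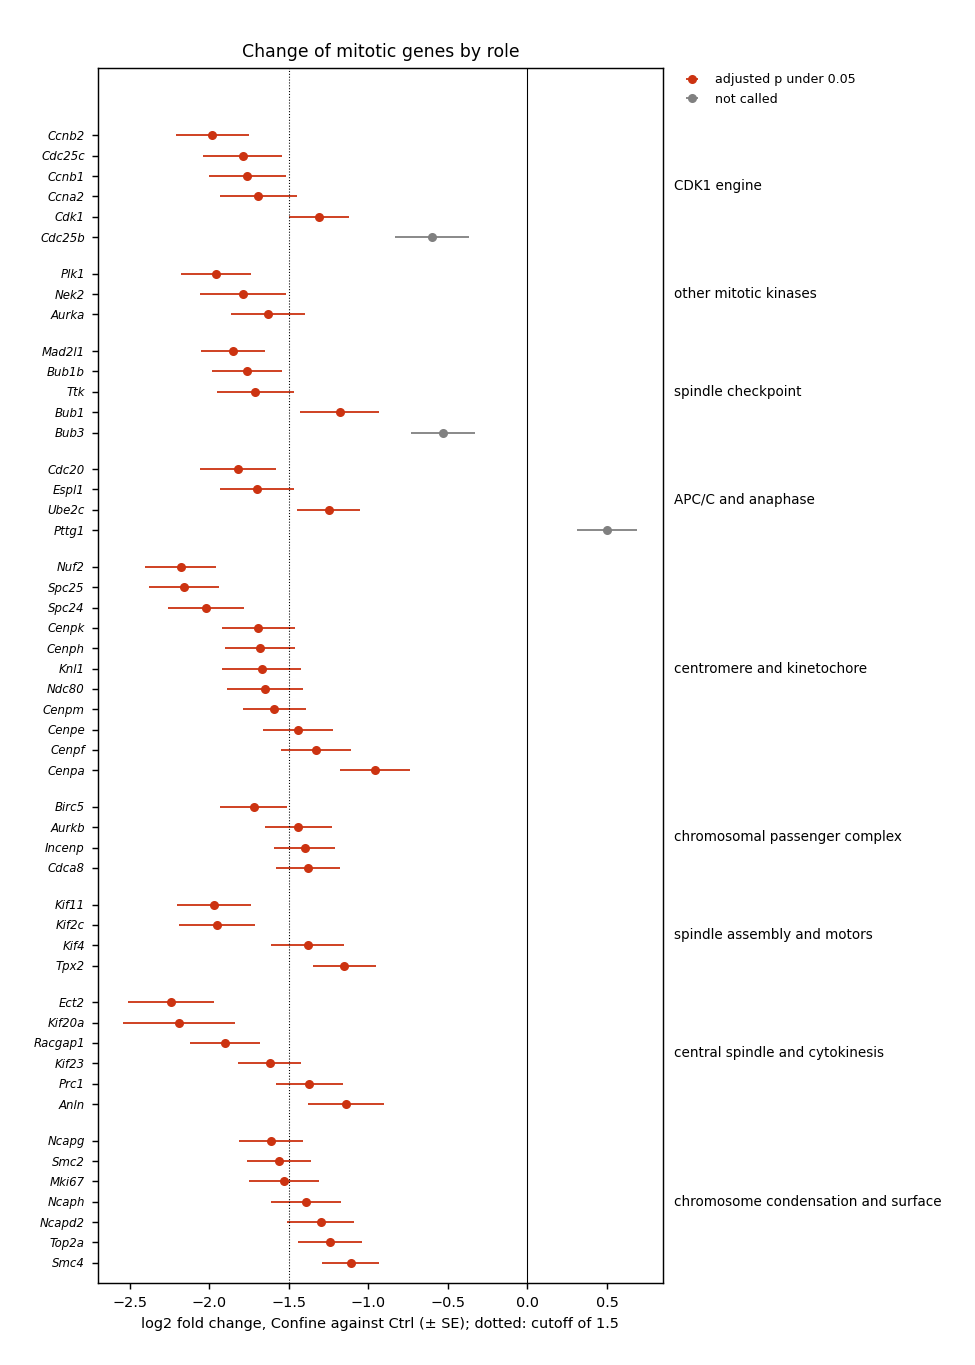
Log2 fold change of each mitotic gene in Confine against Ctrl (x axis), with its standard error, ordered within each role. Red points were called at an adjusted p under 0.05 and grey points were not, and the dotted line is the fold cutoff. The values run from -2.24 (Ect2) to 0.50 (Pttg1), and the uncalled genes are Cdc25b, Bub3 and Pttg1.

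The Confine libraries themselves differed in these genes. The repeated library was below Confine 3 in 48 of the 50 members, with Bub3 and Pttg1 the exceptions, whereas over all tested genes it was below in 51.3%. In the other mitotic lists given below, it was below in 72.5% (spindle and cytokinesis), 66.7% (centromere and kinetochore) and 64.7% (APC/C). For the genes that restrain or activate CDK1 the share was 57.1%, and for cohesin and condensin II 43.8%. The median level of the 50 members was 28.1% of the Ctrl mean in the repeated library and 38.6% in Confine 3. The ratio of Confine 3 to the repeated library had a median of 1.54 and reached 2.14 in Bub1, and 27 members differed by over 1.5 times between these libraries. Among the 3 Ctrl libraries the highest and the lowest differed by that much in 8 members. The shares of all tested genes with such differences are not given here. Taken alone with Ctrl, Confine 3 gave a median log2 fold change of -1.37 and the repeated library -1.83. The median over all tested genes was -0.01 in each of these fits. When 1 Confine library was left out, the number of members past the fold cutoff moved more than the number called lower. In a test against the fold cutoff itself, 3 members passed, beside 67 of all tested genes.

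**Figure D4:**
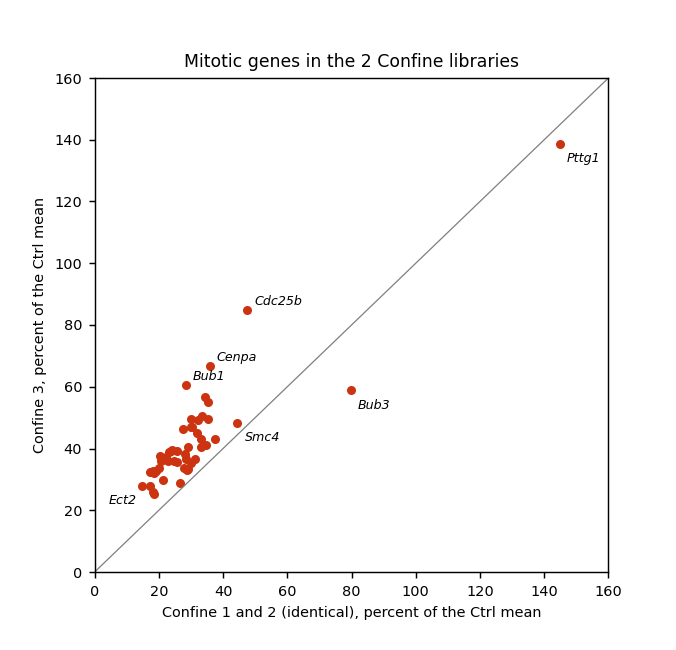
Each mitotic gene in the library deposited as Confine 1 and 2 (x axis) and in Confine 3 (y axis), both as a percent of the Ctrl mean of normalized CPM. The grey line marks equal levels. In 48 of 50 genes the point lies above the line, and Bub3 and Pttg1 lie below it.

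Other genes of the same pathway, from lists written with earlier results known, were lower in part. Of 113 genes in 5 lists, 70 were called lower by edgeR (61.9%, beside 10.3% of tested genes) and 0 higher (beside 12.9%). Their median log2 fold change was -0.90. At an unadjusted p under 0.05, 2 were higher, a count for which the share of all tested genes is not given here. DESeq2 and limma-voom called 0 higher. Among 33 other centromere and kinetochore genes 27 were called lower, led by Cenpq (-1.90 ± 0.21), Cenpi (-1.85 ± 0.22) and Pmf1 (-1.85 ± 0.19), whereas Cenpb, which binds centromeric repeats, had -0.18 ± 0.19. Of 40 other spindle and cytokinesis genes 31 were called lower, led by the motors Kif14 (-1.97 ± 0.28) and Kif20b (-1.90 ± 0.21) and the kinase gene Pbk (-1.88 ± 0.21). The 17 genes of APC/C subunits and partners had a median of -0.15, and 3 were called lower (17.6%, beside 10.3% of tested genes). These were Fbxo5 (-1.66 ± 0.19), which encodes the APC/C inhibitor EMI1, Anapc15 (-0.87 ± 0.22) and Anapc1 (-0.58 ± 0.19). Of 16 cohesin and condensin II genes 6 were called lower, led by Ncapg2 (-1.82 ± 0.22), Esco2 (-1.71 ± 0.26) and Cdca5 (-1.47 ± 0.20). Among 7 genes that restrain or activate CDK1, Pkmyt1 (-1.52 ± 0.24) and Wee1 (-1.28 ± 0.25), the inhibitory kinases, and Cdc25a (-0.56 ± 0.19) were called lower. The share of members called lower was not tested against these lists.

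Genes of factors that act at CHR elements or CCAAT boxes were read as RNA only. Their binding to the promoters of the members was not measured, and their part in the change was not tested. Foxm1, a transcription factor of G2 genes, had 40.5, 36.5 and 29.6 normalized CPM in Ctrl and 9.22 and 11.3 in Confine (log2 fold change -1.80 ± 0.21, SE, adjusted p = 1.7e-06). Lin9, a subunit of the MuvB complex that binds CHR elements, had -1.48 ± 0.26, and Mybl2, which encodes B-MYB, its partner in proliferating cells, had -1.18 ± 0.25. Of the 10 factors listed, 4 were called lower, beside 10.3% of tested genes. The fourth was Nfyc (-0.91 ± 0.24), a subunit of the CCAAT-binding NF-Y. The other NF-Y subunits were not called, with -0.37 for Nfya and 0.45 for Nfyb. The rest of the 10, which encode other MuvB subunits, were not called either: Lin54 (-0.70), Lin52 (-0.68), Lin37 (0.05) and Rbbp4 (-0.04).

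DNA replication genes, which act in S phase, were called lower in 36 of 38 cases, beside 10.3% of tested genes. All 38 had a log2 fold change below 0, beside 50.2% of tested genes, with a median of -1.40. The lowest were Mcm10 (-2.10 ± 0.22), Mcm5 (-2.04 ± 0.21) and Mcm2 (-1.95 ± 0.21), which form the replicative helicase or help to start it. In their promoter windows CHR letters were in 20.0% of the 30 genes with a window, and CCAAT letters in 70.0%. In these genes the repeated library was below Confine 3 in 24 of 38. Of 11 tubulin genes, most of them for the subunits of microtubules, 6 were called lower, beside 10.3% of tested genes. They were led by Tubg1 (-0.97 ± 0.23), which encodes the gamma-tubulin that starts microtubules, Tuba1b (-0.95 ± 0.20) and Tubb2a (-0.95 ± 0.19). Tubb5, the most abundant, had 0.06 ± 0.18.

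**Figure D5:**
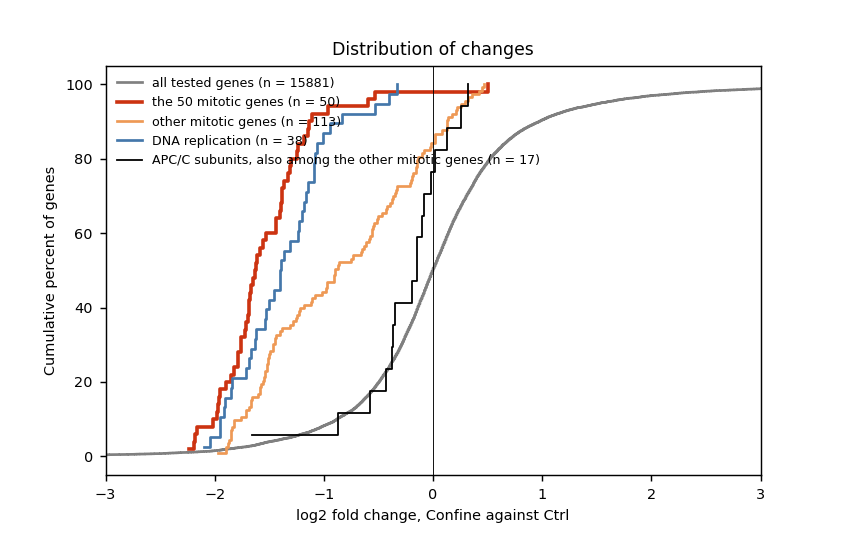
Cumulative percent of genes (y axis) by log2 fold change in Confine against Ctrl (x axis) for all 15881 tested genes, the 50 mitotic genes, the 113 other mitotic genes, the 17 APC/C genes among them, and the 38 DNA replication genes. The medians are 0.0, -1.62, -0.90, -0.15 and -1.40.

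Markers of other cells moved between the groups at low levels. Leukocyte markers summed to between 15.9 and 18.2 normalized CPM in Ctrl and to 35.8 and 41.4 in Confine. Of the 9 markers, 4 passed the filter: Cd68, a lysosomal protein gene, was higher (log2 fold change 2.67 ± 0.25), as were Csf1r (1.45 ± 0.48) and Cd14 (0.92 ± 0.22), and Lyz2 was lower (-2.64 ± 0.38). The rest did not pass the filter. Ptprc, Adgre1, Itgam and Cd3e had 0 counts or less than 0.1 normalized CPM in every library, and Cd79a reached 0.383 in Ctrl 3. Of 7 epithelial markers 0 passed the filter, and of 6 endothelial markers only Vwf did (2.64 ± 0.46), at 2.43 and 2.54 normalized CPM in Confine. Cdh5, Tek and Emcn were below 0.2, and Pecam1 and Kdr reached 0.302 and 0.416 in Ctrl 2. Of 10 fibroblast markers 7 passed the filter, of which 5 were called higher, beside 12.9% of tested genes, and 2 were not called. The higher ones were led by Col3a1 (2.21 ± 0.18), Fn1 (1.04 ± 0.18) and Vim (0.97 ± 0.17). The part of these markers in the change of the mitotic genes was not tested.

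Some members share sequence with other genes. Exons of 7 members (Ccna2, Cdc25c, Cdc20, Cenpk, Kif4, Kif20a and Ncapg) overlap those of an opposite-strand gene that had over 10% of the member's counts. The libraries keep the strand, but whether the counting used it is not given in the sources used here, so reads of such pairs may not be told apart. A search for other transcripts that share at least 300 bases at 95% identity found 9 copies elsewhere of 5 members (Ccnb1, Cdc20, Mad2l1, Ndc80 and Racgap1). The copies of 4 of them had under 1% of the member's counts each, and 2700099C18Rik, which matches 303 bases of Ndc80, had 47.0% and was itself called lower (log2 fold change -0.94 ± 0.23, adjusted p = 0.00365).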

How the data were processed

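RNA-seq of Ctrl and Confine MEFs was analysed from raw counts per gene, which the authors deposited with no normalization. Per the labels, polyadenylated RNA was made into dUTP-marked libraries, and the submitters' processing notes list Trim Galore 0.6.10, HISAT2 2.1.0, SAMtools 1.5, featureCounts and mm10. Symbols, positions and exon lengths came from GENCODE M21 (GRCm38), which matched 55154 of 55335 identifiers without version. Genes were kept by filterByExpr (15881 genes), normalized by TMM and tested by edgeR 4.0.16 (robust quasi-likelihood, R 4.3.3) on group alone. The fit had 3 residual degrees of freedom and, from the variance pooled over genes, a median of 18 prior degrees of freedom. The identical Confine columns were counted once, where 3 against 3 libraries were labelled. Each SE was derived from the test, as the absolute log2 fold change divided by the square root of its F statistic. Floors cover counting error only. Alternatives were other normalizations and filters, DESeq2 1.42.0, limma-voom (limma 3.58.1), a replicate block, both identical columns, a test against the fold cutoff, and leaving out each library. Scripts were tested on simulated data. Copies were searched with blastn 2.17.0. By rule, library values were given for Cdk1, its cyclins, Mki67, Top2a, the lowest and highest member of each role and uncalled members, and log2 fold changes for up to 3 called genes per direction of each other list. The library values of Bub1, Espl1 and Foxm1, and the genes Cenpb, Tubb5, Nfya, Nfyb, Nfyc and 2700099C18Rik, were added after their values were seen. So were Lin37, Lin52, Lin54, Rbbp4, Cd79a, Pecam1 and Kdr. The members and lists were chosen with earlier results of these data known.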

Additional observations from a re-analysis of the deposited data

How the results depend on the processing

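All 47 calls of lower members were shared by every alternative with another normalization or filter, by DESeq2 and limma-voom, with both identical columns, and without any 1 Ctrl library or Confine 3. The number called lower was 49 with library size alone and with no filter, 47 by DESeq2 and by limma-voom, and between 44 and 48 with 1 library left out. Where 1 Confine library was left, it is assumed to vary like Ctrl. The number past the fold cutoff was 30, between 14 and 44 with 1 library left out, and 3 in the test against the cutoff itself. Without the repeated library Bub1, Cenpa and Anln lost their calls, and in some alternatives Cdc25b or Bub3 was called lower or Pttg1 higher. The direction of no member reversed. Over all tested genes, 2830 were lower with library size alone in place of 1635, 893 without the repeated library and 891 without Confine 3, which also gave 1253 higher genes in place of 2052. The count past the cutoff was 329 in place of 499 with at least 10 counts in every library. For why these counts moved, the cause was not tested.

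With a replicate block, the number of lower members was 47 with the identical columns as Confine replicate 2 and 48 as replicate 1, the number past the cutoff 29 and 30, and that of the 113 other mitotic genes 56 and 76 in place of 70. Over all tested genes 1080 were lower in the block with replicate 2. Same-numbered deviations from the group means had correlations of -0.083 and -0.0075 with the identical columns as replicate 2. As replicate 1 the values were 0.094 and -0.0075. With 2 Confine libraries their deviations are mirror images, and the true replicate of the repeated library is unknown. Whether same-numbered libraries were prepared together can therefore not be decided from these values. Depth did not limit the members, whose lowest count was 101.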
